A study of Saccharomyces cerevisiae with 6 samples.

Results

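The genes of the 26S proteasome, the ATP-dependent protease that breaks down ubiquitin-tagged proteins, were examined together with RPN4, the gene of the transcription factor that drives them. Members were taken by systematic identifier and no measured value entered the rule, although earlier results of these data were known. They are 14 genes of the 20S core, 6 ATPases of the 19S base, 4 further base subunits, 8 lid subunits and RPN4. These 33 are among 10239 loci counted, of which 6558 code for proteins. All 33 passed the filter on low counts. SEM1, a small lid subunit outside this membership, is given with the proteasome-associated proteins below.

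The colonies were grown from BR-F, a wild diploid strain of Saccharomyces cerevisiae, for 3 days on soft glycerol agar under a polycarbonate filter through which the roots grow. Root cells, which had invaded the agar below the filter, were set against aerial cells, which lay above it, with 3 libraries of each that the study describes as independent biological replicates from many pooled colonies. Both groups came from the same strain, age and medium, and neither carried a deletion or a treatment. Root pellets were spun out of contaminating agar, and microscopy in the study placed some aerial-type protein at root tips and some root-type protein in aerial cavities, so each group is a mixture. Fewer cells of a type and less RNA per cell cannot be told apart in such bulk samples.

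In the proteasome, a barrel of stacked rings, the 20S core, holds the peptidase sites on the inner faces of its beta rings, while the alpha rings form the gate. The 19S particle caps the barrel: its base unfolds substrates with a ring of ATPases and its lid removes ubiquitin. Rpn4 binds a short promoter element found at most proteasome genes of budding yeast, and it is itself a short-lived substrate of the proteasome, which gives a feedback loop on proteasome supply.

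Libraries held 13764726 to 17095539 counts. The 7 root marker genes summed to 9219 to 10817 CPM (counts per 1000000 counts of the library size after TMM scaling, a trimmed-mean correction for library composition) in root libraries and 886 to 1714 CPM in aerial libraries, and the 7 aerial markers to 1876 to 2646 CPM in root and 8015 to 15039 CPM in aerial, so the markers followed the labels in all 6. All 14 markers passed the test described below in the direction of their label. The study named them from these same samples, so this is no independent check of the labels. The aerial marker ATG8 overlapped between the groups, with 213 CPM in aerial library 1 and 220 CPM in root library 1. For the proteasome genes, aerial library 1 stood apart from aerial libraries 2 and 3, and results that rest on it are given with and without it.

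Because the members share a known promoter element, its copies are shown first. The nonamer GGTGGCAAA was searched on both strands of the reference sequence R64, from 250 bases before to 50 bases after the first coding base. It was found in 27 of 33 members (81.8%) and in 72 of 6002 promoters of all genes (1.20%). Each of the 27 held 1 copy, which ended 75 to 174 bases before the first coding base, with a median of 111 bases, and 19 copies lay on the gene's own strand. Extending the search to 500 bases before the first coding base added no member. The 5 copies below belong to the 4 genes that passed the test between root and aerial cells and to PRE6, and are shown with 10 flanking bases on each side, 5′ to 3′ on the strand that reads GGTGGCAAA, with the element in capitals.
PRE1: aaatctttacGGTGGCAAAaaataaagaa
PRE3: aacggaatccGGTGGCAAAaaagggaaaa
RPN5: ttgacttttcGGTGGCAAAatgcaaaggg
RPN3: ctctttcttgGGTGGCAAAtgtttttcgt
PRE6: tttcccttccGGTGGCAAAagaatcttcg

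These 29-base stretches lie at chrV:177683-177711 for PRE1, chrX:435035-435063 for PRE3, chrIV:190776-190804 for RPN5, chrV:196843-196871 for RPN3 and chrXV:255218-255246 for PRE6. Those of RPN3 and PRE6 read on the strand opposite to the gene. The sequence is that of the reference strain, and BR-F may differ from it.

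The 6 members without the exact element were PRE5, PUP1, RPN8, RPN10, RPN13 and RPN4. All but RPN4 held 1 copy with 1 base changed, counted from 1 at the 5′ end of the element: G1A in PRE5, PUP1 and RPN8, and A7G in RPN10 and RPN13. The changed letters were searched after this was seen, and AGTGGCAAA stood in 0.716% and GGTGGCGAA in 0.450% of all promoters. Those shares are no background for the search itself, which allowed any 1 base to change. The share of all promoters with such a copy is not given here. The 5 changed copies are shown because 3 of these genes have the fold changes nearest to or above 0 among the subunits.
RPN10: tgtaaattccGGTGGCGAAaacccgcctg
PRE5: cctattatagAGTGGCAAAattaaaaatt
PUP1: aacccggccgAGTGGCAAAataccaaaaa
RPN13: ttattcgcgaGGTGGCGAAagctttgcta
RPN8: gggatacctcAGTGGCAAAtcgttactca

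They lie at chrVIII:498968-498996 for RPN10, chrXIII:901552-901580 for PRE5, chrXV:631891-631919 for PUP1, chrXII:965656-965684 for RPN13 and chrXV:817085-817113 for RPN8. The core GGTGGC, which RPN10 and RPN13 keep, was in 29 members (87.9%) and in 6.93% of all promoters. Of the letters tied to the activators of RPN4, the RPN4 window held the heat shock element, found in 0.783% of promoters, and no other member's window held it. The Pdr1 and Pdr3 letters TCCGTGGA and the Yap1 letters TTAGTAA were found at RPN4 only within 500 bases before the first coding base. In that longer stretch TCCGTGGA stood in no other member and in 1.05% of promoters. TTAGTAA stood there in 6 members (18.2%, against 11.8% of promoters), so it was not particular to RPN4. In the main window TTAGTAA was in 3 members (9.09%, against 7.45% of promoters), PRE5, RPN7 and RPN8. TCCGCGGA, the other Pdr form, stood in the window of RPN11 alone (0.217% of promoters). It was in no member within 500 bases before the first coding base, so the RPN11 copy reached into the coding bases of the window. The stress element AGGGG stood in the window of 8 members (24.2%, against 21.6% of promoters).

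Most proteasome genes had log2 fold changes of root over aerial somewhat below 0, none as low as −1, and few passed the test. The log2 fold change of root over aerial was below 0 for 31 of 33 members, against 51.8% of the 7971 loci tested, and the exceptions were RPN10, a ubiquitin receptor, at 0.23 and PRE5, an alpha subunit, at 0.03, which turned to −0.032 with upper quartile scaling and to −0.0051 with library sizes alone. The median over the 33 members was −0.36, beside −0.03 over all loci tested. The standard deviation of the members' log2 fold changes was 0.22, where all loci tested had 0.85 and protein-coding loci 0.86. Those loci were not matched to the members in level, so the contrast does not show that the members are unusually alike. Since the members act in 1 complex and share libraries, the numbers of members given are counts and not independent trials.

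Few single genes passed. With edgeR's quasi-likelihood test and Benjamini-Hochberg adjustment over all 7971 loci, 4 of 33 members (12.1%) had an adjusted p below 0.05, all lower in root, and DESeq2 called the same 4. Of all loci, 31.6% passed in either direction and 15.6% passed as lower in root, so the share of members called lay below both. In simulated data, edgeR called 5 of 60 loci changed 1.5-fold and 26 of 69 changed 2-fold. The simulation changed few loci and gave every locus the same dispersion, whereas 31.6% of the real loci passed. It therefore does not measure how often a change near the members' median of 1.28-fold is missed here. With a 2-fold change required as well, edgeR and DESeq2 called 0 members, where edgeR called 9.2% of loci as at least 2-fold lower in root, and 9 members (27.3%) had an unadjusted p below 0.05, against 43.1% of loci. The CPM of 15 members (45.5%) did not overlap between the groups, all of them lower in root, where 23.4% of loci were without overlap and lower. Among the 15, RPN13 and RPN11 were nearly tied between root library 1 and aerial library 1. These had 46.7464 and 46.7467 CPM for RPN13, and 104.57 and 104.76 CPM for RPN11. No member was without overlap and higher in root, as 25.1% of loci were.

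**Figure D1:**
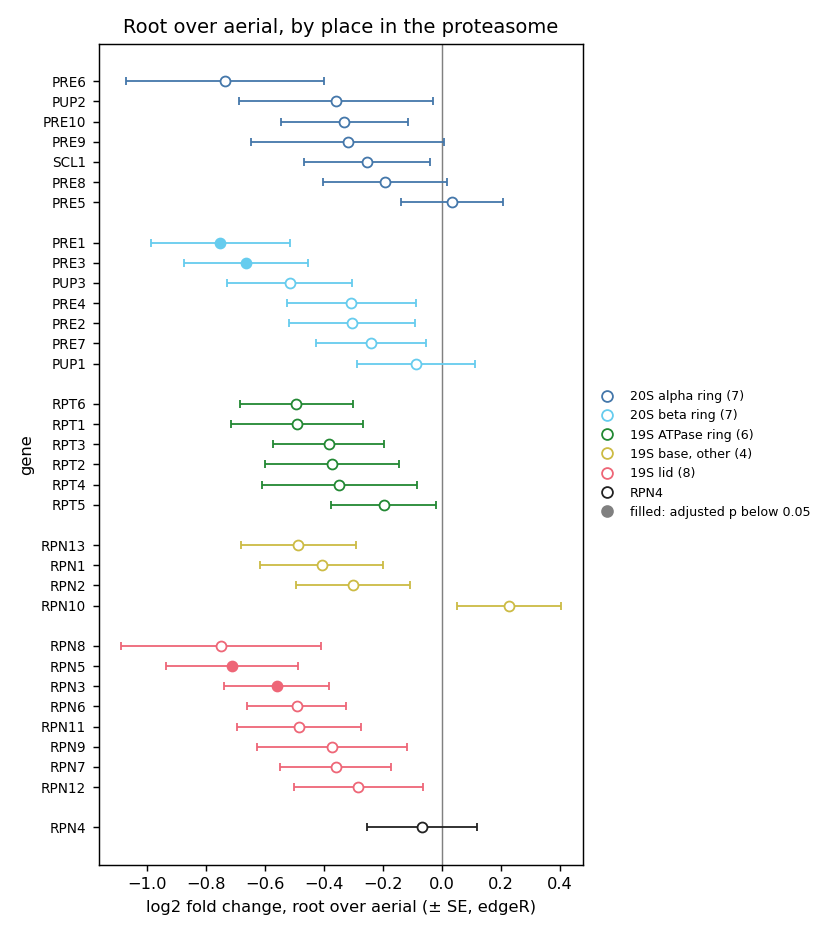
Log2 fold change of root over aerial with its standard error (edgeR, 3 libraries a group) for each of the 33 genes, ordered within its place in the complex. Filled points mark the 4 genes with an adjusted p below 0.05, PRE1, PRE3, RPN5 and RPN3, and 31 points lie left of 0 with TMM scaling.

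The alpha rings, which gate the core, had a median log2 fold change of −0.32 over 7 genes, and 0 passed with edgeR or DESeq2, had an unadjusted p below 0.05 or were free of overlap. PRE6 (YOL038W, chrXV:255337-256101, plus strand) had 129, 129 and 105 CPM in root libraries 1, 2 and 3, against 98.2, 251 and 255 CPM in aerial libraries 1, 2 and 3. Aerial libraries 2 and 3 lay far above the root libraries and aerial library 1 lay below them. Its log2 fold change was −0.74 (SE 0.34, edgeR adjusted p = 0.125), the most negative of the ring.

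PRE9 (YGR135W, chrVII:761392-762168, plus strand), the alpha subunit that yeast can do without, had 146, 123 and 113 CPM in root and 80.8, 216 and 179 CPM in aerial. As for PRE6, aerial library 1 was the lowest of all 6 (log2 fold change −0.32, SE 0.33, edgeR adjusted p = 0.484). PRE5 (YMR314W, chrXIII:901709-902413, plus strand), the least negative of the ring, had 135, 126 and 123 CPM in root and 113, 119 and 144 CPM in aerial, with groups that overlapped (0.03, SE 0.17, edgeR adjusted p = 0.902). The log2 fold changes of the other 4 were −0.36 for PUP2, −0.33 for PRE10, −0.25 for SCL1 and −0.19 for PRE8. In aerial library 1, 6 of the 7 alpha genes were below every root library, while in aerial library 3 all 7 were above every root library.

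The beta rings carry the peptidase sites and held 2 of the 4 genes called, with a median of −0.31 over 7 genes. PRE1 (YER012W, chrV:177835-178431, plus strand), a structural beta subunit, had 117, 123 and 98.0 CPM in root and 132, 224 and 213 CPM in aerial. Every aerial library was above every root library, and the log2 fold change was −0.75 (SE 0.23, edgeR adjusted p = 0.0383). PRE3 (YJL001W, chrX:435163-435926, plus strand, 2 exons), the caspase-like peptidase, had 137, 121 and 120 CPM in root and 188, 160 and 249 CPM in aerial, again without overlap (−0.66, SE 0.21, edgeR adjusted p = 0.0394).

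The other peptidases moved less. PRE2 (YPR103W, chrXVI:732349-733212, plus strand), the chymotrypsin-like peptidase, had 131, 122 and 106 CPM in root and 115, 145 and 184 CPM in aerial (−0.30, SE 0.21, edgeR adjusted p = 0.307). PUP1 (YOR157C, chrXV:630966-631751, minus strand), the trypsin-like peptidase, had 119, 101 and 99.97 CPM in root and 97.5, 101 and 141 CPM in aerial (−0.09, SE 0.20, edgeR adjusted p = 0.762). In both genes aerial library 1 fell inside or below the root range, and whether the 3 peptidases differ from each other in their response was not tested. PUP3, at −0.52, did not overlap between groups but missed the threshold (edgeR adjusted p = 0.0946), and PRE4 and PRE7 had −0.31 and −0.24.

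The ring of ATPases, which unfolds substrates and opens the gate, had a median of −0.38 over 6 genes, with a range of −0.49 to −0.20. Neither edgeR nor DESeq2 called any of them, and 1 had an unadjusted p below 0.05. RPT6 (YGL048C, chrVII:410069-411286, minus strand) had 222, 227 and 203 CPM in root and 264, 356 and 299 CPM in aerial (−0.49, SE 0.19, edgeR adjusted p = 0.0807). RPT5 (YOR117W, chrXV:545029-546333, plus strand), at the other end of the range, had 232, 241 and 205 CPM in root and 249, 257 and 272 CPM in aerial (−0.20, SE 0.18, edgeR adjusted p = 0.423). Both were free of overlap, as were RPT1 (−0.49) and RPT3 (−0.38), whereas RPT2 (−0.37) and RPT4 (−0.35) overlapped.

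Among the 4 other base subunits, the scaffold genes RPN1 and RPN2 had −0.41 and −0.30, and the ubiquitin receptor genes RPN13 and RPN10 stood at opposite ends. RPN13 (YLR421C, chrXII:965090-965560, minus strand) had 46.7, 42.7 and 40.5 CPM in root and 46.7, 67.7 and 67.6 CPM in aerial, the lowest counts of any member (−0.49, SE 0.19, edgeR adjusted p = 0.0859). RPN10 (YHR200W, chrVIII:499079-499885, plus strand) had 182, 157 and 163 CPM in root and 130, 140 and 160 CPM in aerial. It was the one subunit other than PRE5 with a higher mean in root, its groups overlapped, and it did not pass (0.23, SE 0.18, edgeR adjusted p = 0.356). The difference between RPN13 and RPN10 was not tested.

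The lid had the most negative median, −0.49 over 8 genes, all of them below 0, with 2 genes called and 5 free of overlap. RPN5 (YDL147W, chrIV:190924-192261, plus strand), a scaffold subunit, had 273, 314 and 275 CPM in root and 371, 583 and 457 CPM in aerial (−0.71, SE 0.22, edgeR adjusted p = 0.0386). RPN3 (YER021W, chrV:196948-198519, plus strand), another scaffold subunit, had 177, 201 and 191 CPM in root and 257, 295 and 286 CPM in aerial (−0.56, SE 0.18, edgeR adjusted p = 0.0395). In both genes each aerial library exceeded each root library, and for RPN3 the 3 aerial libraries lay within 1.15-fold of each other.

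RPN8 (YOR261C, chrXV:815915-816931, minus strand), the partner of the lid's deubiquitinase, was the most negative of the lid, yet missed the threshold. It had 231, 205 and 181 CPM in root and 172, 469 and 396 CPM in aerial, so that aerial library 1 was the lowest of the 6 (−0.75, SE 0.34, edgeR adjusted p = 0.123). RPN11 (YFR004W, chrVI:153393-154313, plus strand), the deubiquitinase itself, had 105, 101 and 103 CPM in root and 105, 170 and 157 CPM in aerial (−0.48, SE 0.21, edgeR adjusted p = 0.110). RPN6, which clamps the lid to the core, had 130, 139 and 117 CPM in root and 177, 181 and 185 CPM in aerial and narrowly missed the threshold (−0.49, SE 0.17, edgeR adjusted p = 0.0526). RPN12 was the least negative at −0.28 (SE 0.22, edgeR adjusted p = 0.351), with 97.1, 92.4 and 76.5 CPM in root and 78.2, 118 and 127 CPM in aerial, and RPN9 and RPN7 had −0.37 and −0.36.

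RPN4 (YDL020C, chrIV:415113-416708, minus strand) differed by less than the spread between libraries. It had 377, 420 and 384 CPM in root and 387, 446 and 405 CPM in aerial, which gives means of 394 ± 22.9 and 412 ± 30.2 CPM (SD, n = 3 each). The log2 fold change was −0.07 (SE 0.19, edgeR adjusted p = 0.808). Rpn4 is controlled by its breakdown as well as by its transcript, and the protein was not measured here.

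**Figure D2:**
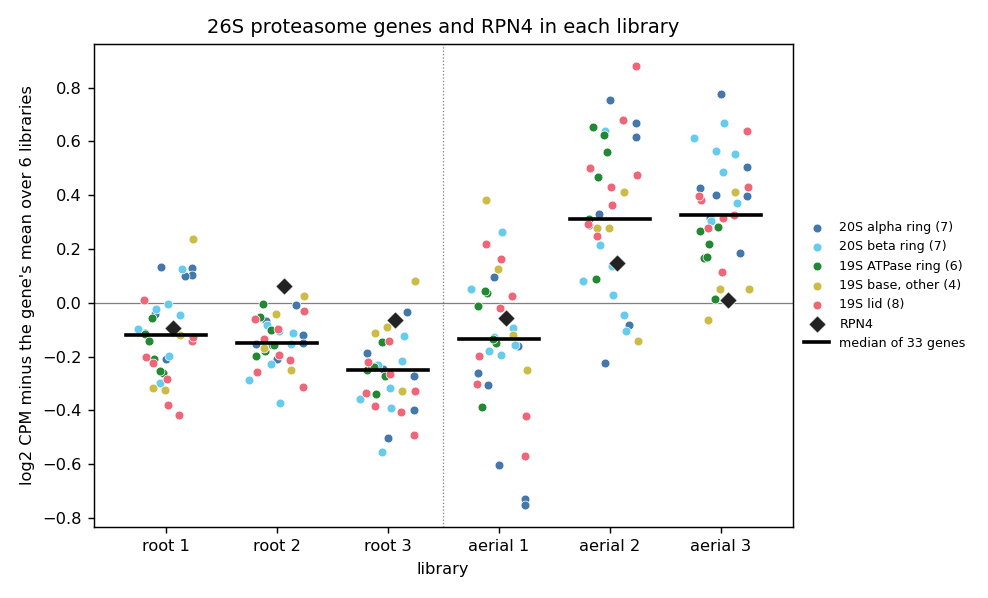
Each point is 1 of the 33 genes in 1 library, as log2 CPM minus that gene's mean over the 6 libraries, and the black bar is the median of the 33. The medians were −0.12, −0.15 and −0.25 in root libraries 1 to 3 and −0.13, 0.31 and 0.33 in aerial libraries 1 to 3. The median of aerial library 1 thus lies among the root medians, although 15 genes there were above and 11 below every root library. RPN4 stays near 0 throughout.

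The aerial libraries were not alike. In aerial library 2, 29 of 33 members were above every root library, and in aerial library 3, 31 were, but in aerial library 1 only 15 were and 11 were below every root library. Over all loci tested, 41.3%, 41.1% and 42.1% were above every root library in aerial libraries 1, 2 and 3, and 42.7% were below every root library in aerial library 1, a larger share than that of the members. The root mean square difference in log2 CPM over the members was 0.154 to 0.228 between root libraries and 0.315 between aerial libraries 2 and 3, but 0.666 and 0.616 between aerial library 1 and aerial libraries 2 and 3. Over protein-coding genes the same measure was 0.778 between aerial libraries 1 and 2, 0.585 between 1 and 3 and 0.610 between 2 and 3, so aerial library 1 did not stand apart in this way over all genes. The ratio of the highest to the lowest library was wider in aerial than in root cells for 30 of 33 genes, with a median of 1.56 in aerial and 1.15 in root.

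The gap was uneven over the genes. Aerial library 1 had 0.387 times the mean of the other 2 aerial libraries for PRE6, 0.396 for RPN8, 0.408 for PUP2 and 0.409 for PRE9, and 1.20 times for RPN1. Short genes tended to be lower in aerial library 1 relative to the other aerial libraries: log2 ratio and log2 coding length had a Pearson correlation of 0.38 and a Spearman correlation of 0.29 over the 33 members, and of 0.32 and 0.31 over 5680 protein-coding genes, which share the same libraries. The log2 fold change of root over aerial had a Pearson correlation with length of −0.00024 and a Spearman correlation of −0.04 over the members, and of −0.12 and −0.14 over the 5680 genes. Most markers of sporulating cells moved with this gap: 12 such genes summed to 2055 to 3721 CPM in root, and to 5142, 16697 and 10333 CPM in aerial libraries 1, 2 and 3, where the late spore gene SPS4 made up most of the sum. Aerial library 1 was the lowest aerial library for 10 of the 12, but IME1, the regulator of entry into meiosis, had 515, 425 and 458 CPM in aerial libraries 1 to 3, and DMC1, a meiotic recombinase, had 79.7, 78.4 and 97.7 CPM. All 12 were called lower in root and none was at 0, and their part in the result was not tested.

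The subunits as a whole took 0.550%, 0.585% and 0.539% of protein-coding counts in root libraries 1 to 3, and 0.552%, 0.889% and 0.857% in aerial libraries 1 to 3. The means were 0.558 ± 0.0239% and 0.766 ± 0.186% (SD, n = 3 each), and the 2-sided exact permutation test gave p = 0.2, where 0.1 is the smallest that 3 against 3 allows. Summed CPM of the 32 subunits, a measure added after these shares had been seen, was 5487, 5520 and 5113 in root and 5824, 7958 and 7623 in aerial, without overlap (exact permutation p = 0.1, the smallest possible). The groups therefore overlapped on 1 scale and did not on the other, and aerial library 1 lay inside the root range on the share and just above it on summed CPM.

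Aerial library 1 was singled out on the members' own values, so leaving it out was bound to lower most of their fold changes. The fit without it is a description and no separate support. When aerial library 1 was left out, edgeR called 13 members, all lower in root, against 17.7% of 8150 loci called lower in root in that fit. These included the 4 called with all libraries. The median of the members was then −0.50, and RPN8 (−1.07, edgeR adjusted p = 0.00574) and PRE6 (−1.06, edgeR adjusted p = 0.00426) passed as at least 2-fold lower in root, which 9.45% of loci did. Without that library, 28 members were free of overlap and lower in root, as were 30.2% of loci, a count that 3 against 2 libraries reach more easily than 3 against 3. RPN10 remained at 0.17 and RPN4 at −0.11, with edgeR adjusted p of 0.519 and 0.702. When aerial library 3 or any single root library was left out instead, no member was called, and without aerial library 2 there were 4. In those fits, 3, 4 and 0 members had an unadjusted p below 0.05 without root library 1, 2 or 3, and 7 without aerial library 3.

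Fold change and promoter element can be set side by side, as a description. Members with the exact element had a median log2 fold change of −0.37 (27 genes), and the 6 without it −0.08. The 4 least negative values of the 33, those of RPN10, PRE5, RPN4 and PUP1, all belonged to members without the exact element, while RPN8 (−0.75) and RPN13 (−0.49), also without it, were among the more negative. All 4 genes that passed the test had the exact element, but so did 81.8% of all members, so this count says little. The split was noticed in these data and was not tested.

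**Figure D3:**
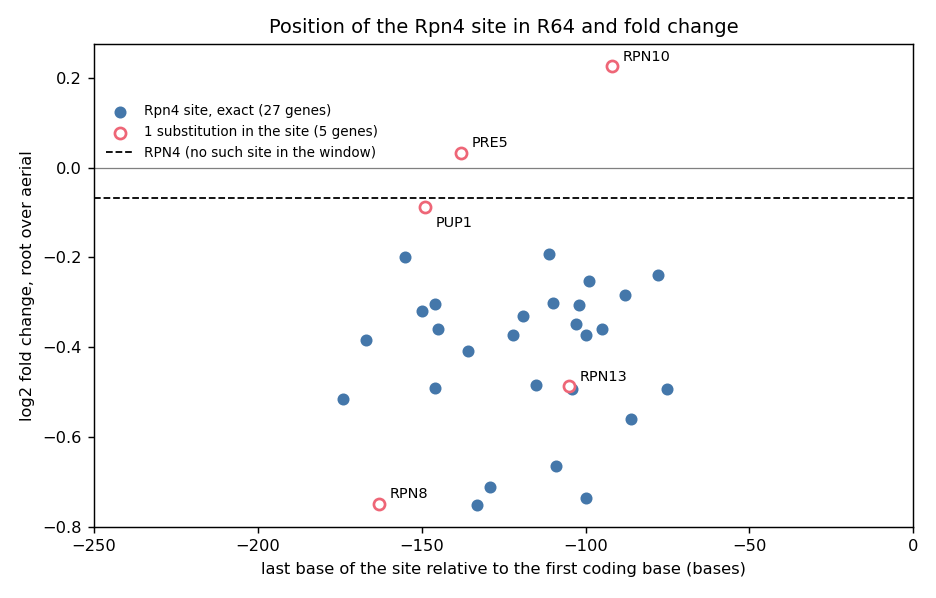
Position of the Rpn4 element in the R64 reference (x axis, bases from its last base to the first coding base) against the log2 fold change of root over aerial (y axis), for 27 genes with the exact element and 5 with 1 base changed. The exact elements lie between 75 and 174 bases before the start, with fold changes of −0.75 to −0.19, and RPN10, PRE5 and PUP1 lie above all of them.

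Per kilobase of coding length, the subunits lay within 3.29-fold of each other in every root library and within 4.47-fold in every aerial library. In root cells the lowest were RPT2 with 91.7 ± 4.91 and RPN13 with 92.0 ± 6.70 CPM per kb, and the highest subunit was PUP3 with 257 ± 24.3 CPM per kb, followed by RPN5 with 215 ± 17.6 (SD, n = 3). RPT2 and RPN13 did not differ beyond their spread. In aerial cells PUP3 had 367 ± 84.4, RPN5 351 ± 79.8, RPN13 129 ± 25.6 and RPT2 119 ± 34.8 CPM per kb. The standard deviation of log2 CPM per kb over the 32 subunits was 0.399 ± 0.0264 in root and 0.505 ± 0.0170 in aerial libraries (mean ± SD, n = 3 each). The ratio of the highest to the lowest subunit was 2.75 to 3.29 in root and 3.42 to 4.47 in aerial. RPN4, which codes for the regulator and not a subunit, had 247 ± 14.3 CPM per kb in root and 258 ± 18.9 in aerial, and in root only PUP3 had a higher mean.

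**Figure D4:**
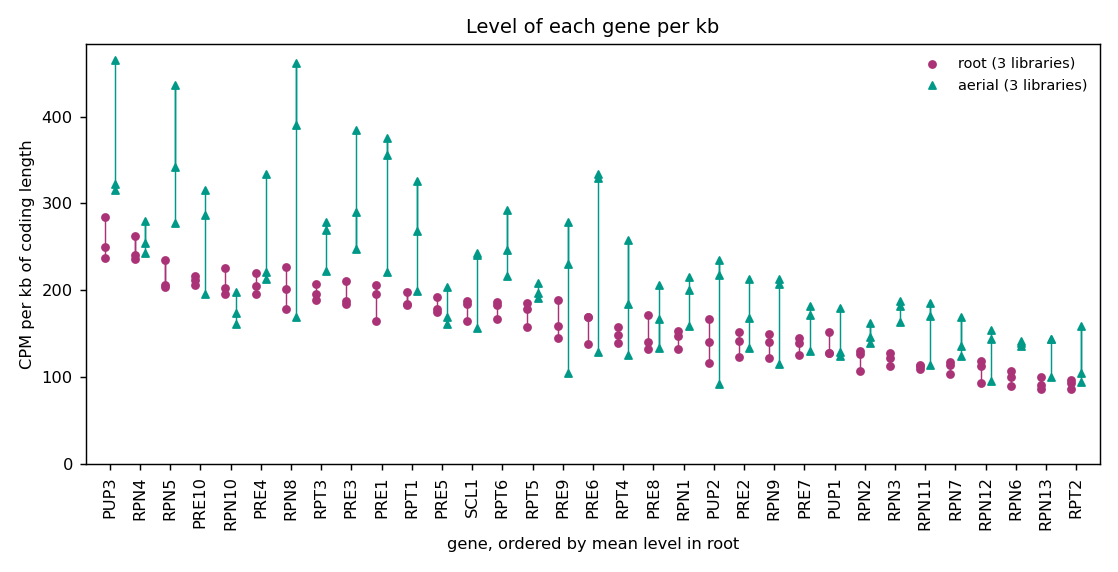
CPM per kb of coding length for each of the 33 genes in the 3 root libraries (circles, left) and the 3 aerial libraries (triangles, right), with lines that join the libraries of a group, and genes ordered by their mean in root. Levels run between 91.7 for RPT2 and 257 for PUP3 in root, and the aerial lines are the longer ones for most genes, with the lowest triangle of RPN8, PRE6, PRE9 and PUP2 below the circles.

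Genes that build the proteasome but are not part of it had log2 fold changes between −1.51 and 1.00. Of 10 assembly chaperones, 3 were called lower and 1 higher in root, with a median of −0.37. As for all related lists, the count stands beside 31.6% of loci called in either direction and 15.6% called lower in root, and on its own says nothing particular about these genes. TMA17, a stress-induced chaperone of the ATPase ring, had 139, 108 and 114 CPM in root and 232, 315 and 484 CPM in aerial (−1.51, SE 0.28, edgeR adjusted p = 0.00488). NAS2 and RPN14, 2 other base chaperones, had −0.61 (edgeR adjusted p = 0.0202) and −0.51 (edgeR adjusted p = 0.0412). POC4, which helps to form the alpha ring, went the other way, with 23.5, 16.8 and 18.7 CPM in root and 7.85, 10.9 and 10.7 CPM in aerial (1.00, SE 0.23, edgeR adjusted p = 0.0112). The core maturation factor UMP1 had −0.47 and missed the threshold (edgeR adjusted p = 0.0876).

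Of 11 proteasome-associated proteins and ubiquitin shuttle factors, 1 was called in each direction, with a median of −0.45. ECM29, which tethers the 19S particle to the core, had 197, 236 and 223 CPM in root and 586, 461 and 395 CPM in aerial (−1.14, SE 0.22, edgeR adjusted p = 0.00532), and aerial library 1 was here the highest. DSK2, a shuttle factor, had 140, 125 and 110 CPM in root and 100.3, 67.7 and 70.9 CPM in aerial (0.65, SE 0.21, edgeR adjusted p = 0.0408). The lid subunit SEM1 had 53.2, 41.3 and 49.2 CPM in root and 24.5, 88.1 and 102 CPM in aerial, with aerial library 1 below the root libraries as for RPN8 (−0.58, SE 0.43, edgeR adjusted p = 0.331). BLM10, the alternative cap of the core, had −0.71 (SE 0.28, edgeR adjusted p = 0.0786). It had 623, 751 and 766 CPM in root and 1610, 963 and 930 CPM in aerial, and −0.85 to −0.40 with single libraries left out.

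Among the 7 genes that activate RPN4 or tag its protein, 3 were called, all lower in root (beside 31.6% of loci in either direction and 15.6% lower), with a median of −0.44. With library sizes alone, no filter or the replicate block, 1 was called. UBR2, the ubiquitin ligase of Rpn4, had 103, 135 and 137 CPM in root and 445, 286 and 256 CPM in aerial (−1.40, SE 0.26, edgeR adjusted p = 0.00451). Its partner MUB1 had −0.60 (SE 0.19, edgeR adjusted p = 0.0418), and HSF1, the heat shock factor that activates RPN4, had −0.57 (SE 0.19, edgeR adjusted p = 0.0476). RAD6, the ubiquitin-conjugating enzyme that works with Ubr2, was the most positive at 0.27 (edgeR adjusted p = 0.351).

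Further from the complex, the 3 ubiquitin genes fused to ribosomal proteins were called higher in root: RPS31 by 1.75 (SE 0.30, edgeR adjusted p = 0.00355), RPL40A by 1.68 (SE 0.27, edgeR adjusted p = 0.00265) and RPL40B by 1.48 (SE 0.22, edgeR adjusted p = 0.00201) on the log2 scale. RPL40A and RPL40B are near-identical copies, so their separate values are uncertain. The stress-induced polyubiquitin gene UBI4 had −0.22 (edgeR adjusted p = 0.442), and UBA1, the ubiquitin-activating enzyme, had −0.54 (edgeR adjusted p = 0.0863). CDC48, the segregase that extracts ubiquitinated proteins, had −0.43 and UFD1, a cofactor of it, −0.28. None of the 4 genes of that list passed with edgeR or DESeq2, and 0 had an unadjusted p below 0.05.

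Of 11 ubiquitin-conjugating enzymes, UBC11 (−1.60, SE 0.49, edgeR adjusted p = 0.0370) and UBC8 (−0.47, edgeR adjusted p = 0.0494) were called lower and UBC4, a main enzyme for short-lived proteins, was called higher in root (1.04, SE 0.32, edgeR adjusted p = 0.0375). The groups overlapped for UBC11, with 62.3, 29.5 and 68.4 CPM in root and 57.7, 244 and 183 CPM in aerial. Of 19 deubiquitinating enzymes, 7 were called, all lower in root (beside 31.6% of loci in either direction and 15.6% lower), among them YUH1 (−1.33, edgeR adjusted p = 0.00285), UBP2 (−1.04, edgeR adjusted p = 0.00413), OTU1 (−0.90, edgeR adjusted p = 0.00619) and UBP13 (−0.78, edgeR adjusted p = 0.0126). The most positive was UBP12 at 0.24 (edgeR adjusted p = 0.385). ECM29, TMA17, UBC11, UBP2, UBR2 and YUH1 are named in the study's own gene list from these libraries, so they are not independent evidence of a direction.

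**Figure D5:**
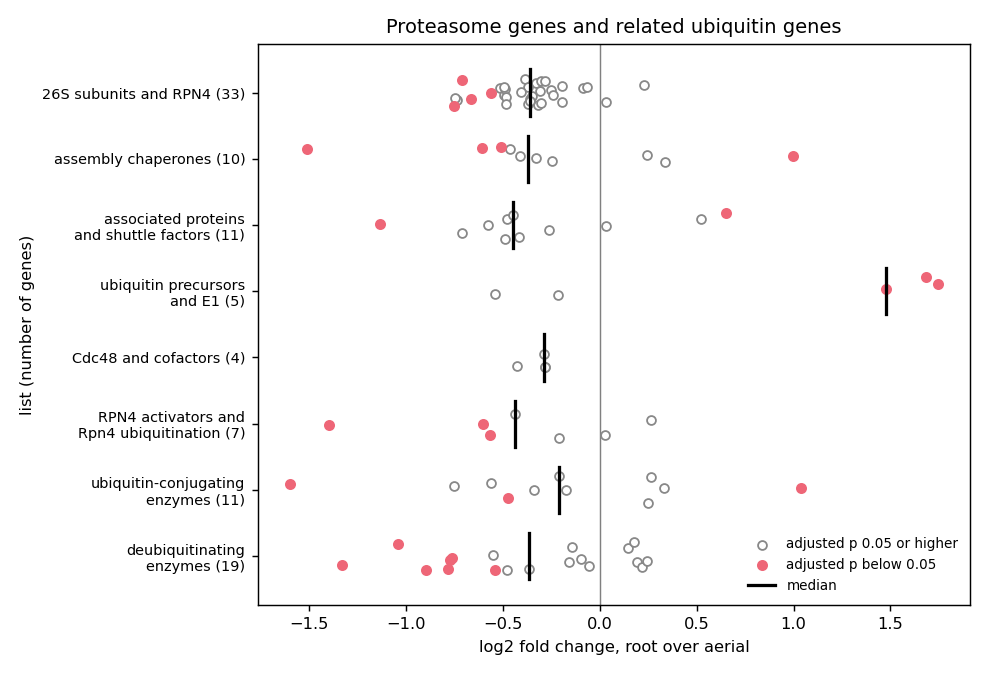
Log2 fold change of root over aerial for the 33 members and 7 lists of related genes, 1 point a gene, with filled points at an adjusted p below 0.05 (edgeR) and a bar at the median. The members lie between −0.75 and 0.23 around a median of −0.36, while the assembly chaperones reach −1.51 and 1.00.

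Noncoding loci named after members were found for PRE5 and PRE6. CMR314WTa3 (PRE5) had 4, 14 and 5 counts in root and 9, 7 and 6 counts in aerial, and COL038WTa3 (PRE6) had 1, 1 and 1 counts in root and 3, 0 and 0 counts in aerial. Both fell under the filter on low counts and were not tested, and at this depth no difference was detectable. No member had a second copy in the genome with 90% identity or more along 50% of its length or more, and none overlapped another coding gene on its own strand.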

How the data were processed

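Counts of 3 root and 3 aerial libraries were used as deposited. Per the labels and the methods, the authors made rRNA-depleted, stranded libraries, mapped them with TopHat2 2.0.14 to R64 and counted reads per locus with featureCounts, so the deposited values are raw counts, not normalized. How reads matching several loci were counted is not given in the sources used here. 1 line naming no locus held 0.000015% to 0.000036% of counts and was left out, and 0 columns were left out.

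The tests were run with edgeR 4.0.16 under R 4.3.3, with DESeq2 1.42.0 as an alternative. Loci passing filterByExpr were scaled by TMM and tested by the quasi-likelihood F test with Benjamini-Hochberg adjustment over 7971 loci, with an adjusted p threshold of 0.05. Fold changes are root over aerial, and the fit was tested on simulated data. There edgeR called 64 of 67 loci changed 4-fold, 26 of 69 changed 2-fold, 5 of 60 changed 1.5-fold and 4 of 7684 left unchanged. Shares were compared by 2-sided exact permutation tests in scipy 1.17.1. Promoter windows and lengths were read from the R64 reference genome and annotation of RefSeq, since no table of promoters was used here.

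The members and gene lists were chosen with earlier results of these data known. All 33 members were accounted for. Values per library are given for RPN4, the genes called, the extremes of each role and 7 genes picked by name. Those 7 were PRE3, PUP1, PRE2, PRE9, RPN10, RPN13 and RPN11. From related lists, the genes called (at most 4 a list) and the extremes are given. SEM1, BLM10, UMP1, UBI4 and RPN6 were named after their values were seen.

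The alternatives were DESeq2, its size factors, upper quartile scaling, library sizes alone, TMM on coding loci, every locus kept, only loci with 10 counts or more in all libraries, the replicate number as a block and each library left out.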

Additional observations from a re-analysis of the deposited data

How the results depend on the processing

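Over the 14 alternatives, 29 to 32 members had a log2 fold change below 0 and the members' median stayed between −0.50 and −0.27. The sign was the same in all 14 for 30 members. PRE5 turned to −0.032 with upper quartile scaling and to −0.0051 with library sizes alone, and ranged between −0.029 and 0.14 when single libraries were left out. PUP1 ranged between −0.18 and 0.094 and RPN4 between −0.11 and 0.0040 in the same way. No scaling moved the median of all loci by more than 0.1 on the log2 scale.

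The number of members called was 4, but 0 with library sizes alone, 2 with no filter, 0 with the replicate block and 0 to 13 with single libraries left out, and no member was called in all alternatives. Adjusted p (edgeR or DESeq2) ranged over 0.00655 to 0.187 for PRE1, 0.00783 to 0.185 for PRE3, 0.0157 to 0.172 for RPN5 and 0.0224 to 0.178 for RPN3. At 2-fold, 0 to 2 members were called when single libraries were left out. Unadjusted p below 0.05 was reached by 15 members with upper quartile scaling, 4 with the replicate block and 0 to 22 with single libraries left out. Members without overlap numbered 6 with library sizes alone and 10 to 28 with single libraries left out, and the members above every root library in aerial library 1 numbered 6 with library sizes alone and 10 to 16 with single root libraries left out.

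Of the related lists, the associated proteins had 4 calls with TMM on coding loci, 1 with no filter and 1 to 6 with single libraries left out. The RPN4 regulators had 1 call with library sizes alone, 1 with no filter, 1 with the replicate block and 1 to 3 with single libraries left out. Ubiquitin-conjugating enzymes had 1 with library sizes alone and 0 to 4 with single libraries left out, assembly chaperones 1 to 5 and deubiquitinating enzymes 3 to 8. Of 19 related genes named as called, 9 were called in all alternatives (ECM29, OTU1, RPL40A, RPL40B, RPS31, TMA17, UBP2, UBR2 and YUH1) and 10 lost the call in at least 1 (DSK2, HSF1, MUB1, NAS2, POC4, RPN14, UBC11, UBC4, UBC8 and UBP13). Without division by length, the spread between subunits was 0.650 in root and 0.733 in aerial. Deviations of same-numbered root and aerial libraries correlated at −0.14, 0.14 and −0.04, and those of differently numbered libraries at −0.30 to 0.36. These few values cannot decide whether root and aerial libraries were paired by harvest. The difference in share was −0.21 percentage points, −0.20 over all counts (exact permutation p = 0.4), −0.23 without the 10 loci with most counts and −0.32 to −0.15 with single libraries left out. The causes of these changes were not tested.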
